A study of Mus musculus with 7 samples.

Results

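Glucose transport and glycolysis use families of isozymes, genes that code for proteins with the same task in different tissues. The 8 genes described here are the transporters Slc2a1, Slc2a2 and Slc2a4, the hexokinases Hk1 and Hk2, the aldolase Aldoa and the pyruvate kinases Pklr and Pkm. They were chosen by symbol, and 9 of 55681 array probes carried an accession that maps to them, against 18031 genes tested in all. All 8 were well above background on 7 of 7 arrays, so that no member entered the test through the group in which it was brighter. Going by its title, the study is about active β-catenin in the dermal sheath, the mesenchymal layer around the hair follicle. The control group had 3 arrays from 4 mice, with 2 mice pooled on array 3. The group called cΔex3 in the labels, there described as β-catenin activation, had 4 arrays from 6 mice, with 2 mice pooled on array 2 and 2 on array 3. All mice were at postnatal day 15, and in both groups dorsal skin cells that carried YFP and lacked CD34, alkaline phosphatase and integrin α8 were sorted, which makes the YFP reporter common to all samples. The alleles of the controls, and the driver of the reporter and of the cΔex3 allele, are not given in the sources used here.

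Glucose enters cells through transporters of the Slc2a family and is then trapped by phosphorylation, split by aldolase and turned into pyruvate by pyruvate kinase. Liver uses a low-affinity set, with the transporter GLUT2 (Slc2a2) and the liver form of pyruvate kinase (Pklr) among its members, which suits an organ that both takes up and releases glucose. Fat and skeletal muscle use the insulin-regulated transporter GLUT4 (Slc2a4) with hexokinase 2, and GLUT1 (Slc2a1), hexokinase 1, aldolase A and Pkm are found in most tissues.

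The markers of the labelled cells and of other cells were read first. The signal is the processed intensity, given on the log2 scale relative to each array's 75th percentile, and a marker sum adds the linear signals of a list in units of that percentile. Markers were called higher or lower by limma at an adjusted p under 0.05. Among all genes tested 24% were called higher and 29% lower, and each count of markers is to be read against these shares. The sum over 7 hepatocyte markers lay between 1658 and 2342 on the control arrays and between 1.27 and 9.98 on the cΔex3 arrays, and all 7 were lower there. The sum over 7 adipocyte markers lay between 10.6 and 82.8 on the control arrays and between 784 and 1644 on the cΔex3 arrays, and all 7 were higher there. The 5 tested of 6 markers of dermal sheath and smooth muscle summed to 20.4 to 28.3 on the control and 59.9 to 125 on the cΔex3 arrays, with Tnn not tested and Col11a1 above background on 0 of 3 control arrays. Dermal fibroblast markers were higher too, 5 of 5, with sums of 121 to 144 on the control and 251 to 407 on the cΔex3 arrays. Of 5 endothelial markers 3 were higher and 1 lower, although their sum was 29.2 to 35.8 on the control and 14.8 to 25.6 on the cΔex3 arrays. At these levels, the hepatocyte markers on the control arrays and the adipocyte markers on the cΔex3 arrays go against a label of dermal sheath cells alone. Being well above background does not set the groups apart. All 7 hepatocyte markers were so on each control array and 6 of 7 on each cΔex3 array, and all 7 adipocyte markers on every array. The gene of β-catenin itself, Ctnnb1, had a difference of −0.02 ± 0.14 (SE; limma, adjusted p = 0.902), a value that was 0.46 with quantile normalisation and 0.52 (adjusted p = 0.0251) in the deposited series values, and its probe's place relative to the altered part of the gene is not known here. The 75th percentile of the signal was 756 to 907 on the control and 1348 to 2160 on the cΔex3 arrays, and 0 spots were saturated. Groups are named by their labels below, every difference is cΔex3 minus control, and the part of RNA from any of these cell types in a result was not tested. In such bulk RNA, fewer cells of a type and less RNA per cell cannot be told apart.

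**Figure D1:**
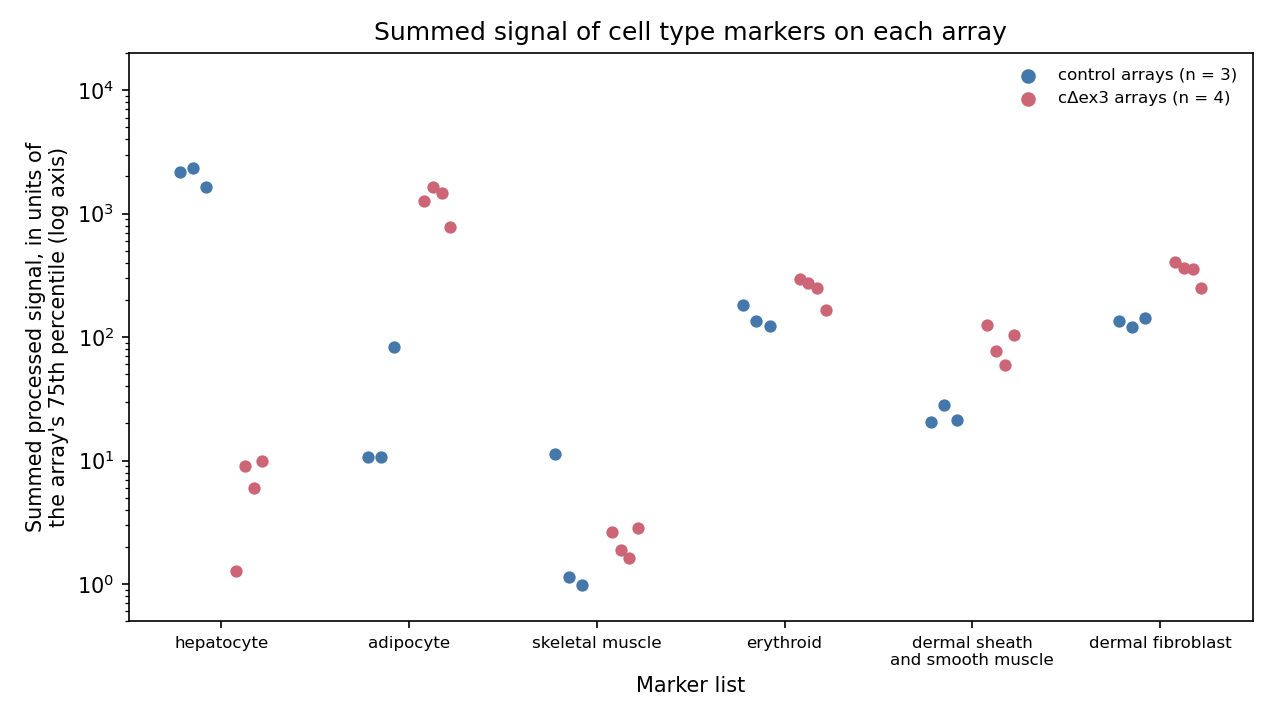
Summed processed signal of the tested members of 6 marker lists on each array, in units of the array's 75th percentile, on a log axis, with 1 point for each control (n = 3) or cΔex3 (n = 4) array. Hepatocyte sums were between 1658 and 2342 on the control arrays and at most 9.98 on the cΔex3 arrays, and the skeletal muscle sum of control array 1, at 11.2, stood above those of the other arrays.

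Of the 8 genes, 5 were higher on the cΔex3 arrays (Slc2a4, Hk1, Hk2, Aldoa and Pkm), both liver-type members (Slc2a2 and Pklr) were lower, and Slc2a1 did not pass the threshold (limma, adjusted p under 0.05 over all genes tested). Among all 18031 genes, 24% were called higher and 29% lower, together 53.1%, so that a call alone is common here. The groups' arrays did not overlap for 7 of the 8, 5 with cΔex3 higher and 2 with it lower, against 26.1% and 32.6% of all genes (58.7% together). By the headers, row 1 of the slide held 2 control and 1 cΔex3 arrays and row 2 held 1 and 3. Each of the 7 called genes kept its direction within both rows. Groups that do not overlap must give this outcome, so it does not test an effect of slide row.

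**Figure D2:**
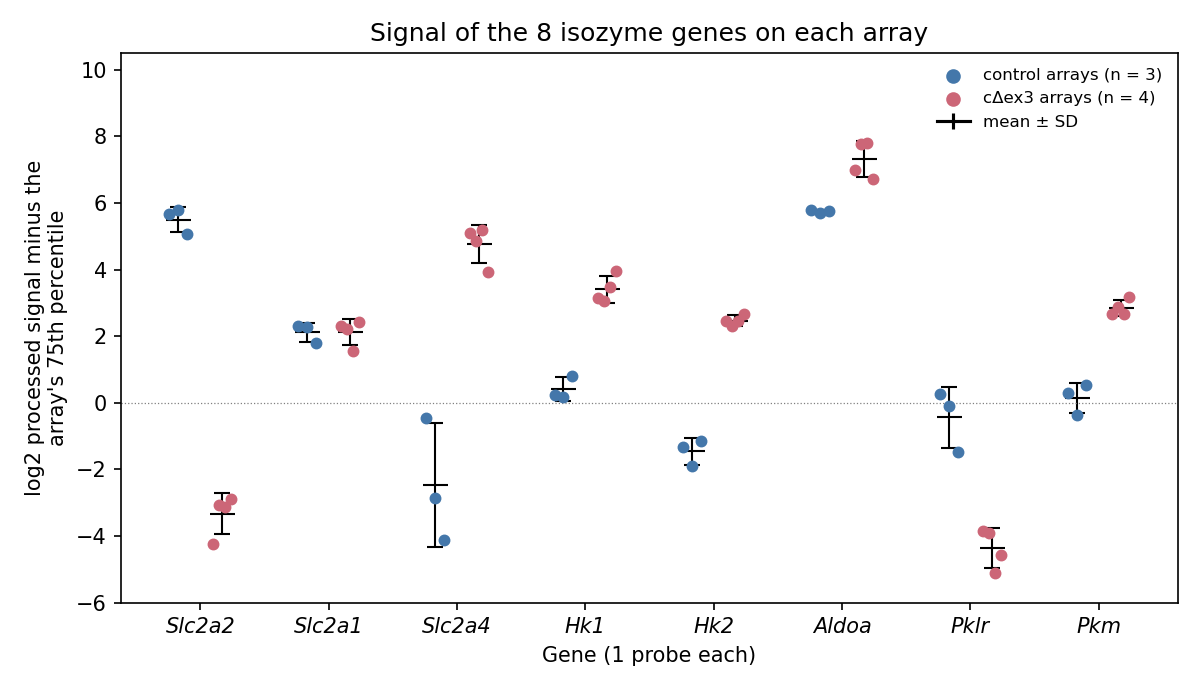
Log2 processed signal minus the array's 75th percentile for the 8 genes, each read by 1 probe, with points for the control (n = 3) and cΔex3 (n = 4) arrays and bars for the mean ± SD. Slc2a2 and Pklr lie lower on every cΔex3 array than on any control array, Slc2a4, Hk1, Hk2, Aldoa and Pkm lie higher, and Slc2a1 overlaps; heights of different genes are not comparable.

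Among the transporters, Slc2a2, which codes for the GLUT2 of hepatocytes and pancreatic beta cells, fell furthest. Its signal was 5.66, 5.77 and 5.07 on control arrays 1 to 3 and −4.25, −3.07, −3.13 and −2.90 on cΔex3 arrays 1 to 4. The lowest control array thus stood 7.96 above the highest cΔex3 array. The difference was −8.84 ± 0.37 (SE; limma, adjusted p = 1.06e-05), about 457-fold. With normexp background correction the difference was −8.27, and in the deposited series values −7.62, so its size depends on the processing. Pancreatic beta cells, kidney tubule and intestine also express Slc2a2, and the beta cell sum was 0.740 to 0.917 on the control arrays over 5 tested markers, the kidney sum 1.15 to 1.54 over 4 of 5. The intestinal sum was 43.5 to 109 there over 4 of 5, carried by the fatty acid binding protein gene Fabp2 at 5.43 to 6.76, while Vil1, Lct and Sis were at −2.32 or lower on the control arrays.

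Slc2a4 codes for GLUT4, which insulin brings to the surface of fat and muscle cells. It read −0.46, −2.85 and −4.11 on control arrays 1 to 3 and 5.09, 4.86, 5.17 and 3.92 on cΔex3 arrays 1 to 4. Control array 1 stood above the other controls, yet 4.38 below the lowest cΔex3 array. The rise was 7.23 ± 0.82 (SE; limma, adjusted p = 0.000475), the widest SE of the 8 genes, and 8.24 without control array 1. The control arrays' adipocyte sums ran the other way, at 10.6, 10.6 and 82.8 on arrays 1 to 3. Of the 7 adipocyte markers, Cidec (1.38, 0.92 and 5.63) and Cfd (0.62, 1.93 and 4.69) were bright on control array 3. Adipoq (−4.52, −1.95 and −5.12) and Retn (−2.61, −1.93 and −3.04) were lowest there, and Plin1, Fabp4 and Lep did not stand apart on it. The skeletal muscle sum over 6 of 7 markers was 11.2, 1.13 and 0.984 on control arrays 1 to 3. Of the 6 tested muscle markers, Acta1, Ckm, Myh1 and Tnnt3 were bright on control array 1 relative to the other control arrays (Myh1 at 1.72, −7.98 and −7.86; Acta1 at 1.55, −4.05 and −4.45), while Mylpf at −3.73, −3.71 and −4.39 and Pygm at 0.12, −0.08 and −0.24 differed little. Among the cΔex3 arrays, array 4 had both the lowest Slc2a4 signal and the lowest adipocyte sum, at 784. On the cΔex3 arrays the muscle sum was 1.62 to 2.83, below control array 1 and above control arrays 2 and 3. Acta1, of skeletal muscle actin, read 0.01 to 0.95 there, and it did not pass (limma, adjusted p = 0.136) with control array 1 among the controls. The part of muscle RNA in the Slc2a4 signal was not tested.

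Slc2a1 codes for GLUT1, the transporter of barrier endothelium and most growing cells. Its signal was 2.30, 2.26 and 1.79 on the control arrays and 2.32, 2.22, 1.55 and 2.42 on the cΔex3 arrays. The groups overlapped, and the cΔex3 arrays reached both below and above the control arrays. The difference was 0.01 ± 0.26 (SE; limma, adjusted p = 0.975), with a 95% interval from −0.61 to 0.64, and its sign turned in 5 of 17 other settings. A change of up to about that interval's ends cannot be told from none with these arrays, and the unscaled signal was higher on every cΔex3 array, at 4871 to 11557 against 3135 to 3749.

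The promoters of Slc2a2 and Slc2a1 are shown because the fall of Slc2a2 and the overlap of Slc2a1 were read on the same arrays. Each run holds the 250 bases before the gene's start, from RefSeq on GRCm38.p6 (Slc2a2 at chr3:28697653-28697902 on the plus strand, Slc2a1 at chr4:119108495-119108744 on the plus strand), and capitals mark matches to the motifs named below.
Slc2a2: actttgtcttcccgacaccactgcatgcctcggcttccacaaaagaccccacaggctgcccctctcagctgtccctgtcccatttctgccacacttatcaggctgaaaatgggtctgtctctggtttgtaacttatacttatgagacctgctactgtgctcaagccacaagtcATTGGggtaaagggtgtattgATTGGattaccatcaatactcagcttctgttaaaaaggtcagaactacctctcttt
Slc2a1: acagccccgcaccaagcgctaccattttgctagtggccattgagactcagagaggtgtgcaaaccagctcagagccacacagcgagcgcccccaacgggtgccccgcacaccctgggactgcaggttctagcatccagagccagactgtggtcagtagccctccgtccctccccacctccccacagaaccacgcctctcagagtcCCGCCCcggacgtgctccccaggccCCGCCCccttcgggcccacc
Capitals in Slc2a2 are 2 CCAAT boxes (CCAAT, here as its reverse complement), and in Slc2a1 2 GC boxes (GGGCGG, likewise). On either strand, CCAAT was found in 33.8% and GGGCGG in 32.7% of 32851 promoter windows of this length. The Slc2a2 window held 47.2% G and C and the Slc2a1 window 66.4%, against a median of 52.4% over all windows.

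Hexokinases trap glucose as glucose 6-phosphate, and both members rose. Hk2, the insulin-regulated form of muscle and fat, read −1.31, −1.91 and −1.15 on the control arrays and 2.47, 2.30, 2.44 and 2.67 on the cΔex3 arrays. The 4 cΔex3 values had an SD of 0.15, the smallest of the 8 genes in that group, and the lowest of them stood 3.45 above the highest control. The rise was 3.93 ± 0.23 (SE; limma, adjusted p = 2.94e-05), about 15.2-fold. Hk1, the form bound to mitochondria in most tissues, read 0.24, 0.16 and 0.82 against 3.15, 3.04, 3.47 and 3.96, with its highest value on cΔex3 array 4. The rise was 3.00 ± 0.29 (SE; limma, adjusted p = 0.000224). A dimmer probe with the same Hk1 accession went the other way, from −1.70 ± 0.11 (SD, n = 3) to −2.67 ± 0.10 (SD, n = 4), a difference of −0.97 ± 0.16 (SE; limma over 42459 probes, adjusted p = 0.00237; 50% of probes were called). With the mean of both probes the rise of Hk1 was 1.01, so its size depends on the probe, and the places of the probes in the transcript are not known here.

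The Hk2 promoter is shown as that of the member with the least spread on the cΔex3 arrays. It lies at chr6:82774455-82774704 on the minus strand of GRCm38.p6, and its capitals are 3 GC boxes (GGGCGG) and 2 CCAAT boxes (CCAAT) on either strand.
Hk2: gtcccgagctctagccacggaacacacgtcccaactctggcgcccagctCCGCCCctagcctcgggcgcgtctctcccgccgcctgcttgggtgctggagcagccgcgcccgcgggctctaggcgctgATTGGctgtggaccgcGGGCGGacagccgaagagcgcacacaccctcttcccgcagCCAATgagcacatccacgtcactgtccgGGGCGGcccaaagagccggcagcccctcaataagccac
The window held 69.6% G and C.

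Aldoa codes for the aldolase of muscle and most other tissues. It read 5.79, 5.69 and 5.75 on the control arrays and 6.99, 7.77, 7.79 and 6.72 on the cΔex3 arrays. The control arrays agreed within 0.11, and among the cΔex3 arrays those of pooled mice, arrays 2 and 3, were the higher ones. The rise was 1.57 ± 0.31 (SE; limma, adjusted p = 0.00474), about 2.98-fold, and 1.11 with arrays of 1 mouse only. Quantile normalisation gave 2.47 and the deposited series values 2.51, each more than 1.5 times as large. Whether the probes of Aldoa, Pkm, Gapdh or Pgk1 also read near-identical copies of these genes is not known here.

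Pyruvate kinase makes pyruvate and ATP in the last step of glycolysis, and its genes moved apart. Pkm, which yields the M1 form of muscle and the M2 form of proliferating and many other cells by splicing, read 0.29, −0.36 and 0.52 on the control arrays and 2.66, 2.86, 2.68 and 3.17 on the cΔex3 arrays. It rose by 2.69 ± 0.26 (SE; limma, adjusted p = 0.000226). Whether its probe reads M1, M2 or both is not known here. Pklr, the gene of the liver and red cell enzymes, read 0.25, −0.09 and −1.47 against −3.85, −3.93, −5.11 and −4.57. Control array 3 was the lowest control, as it was for the hepatocyte sum, and still 2.38 above the highest cΔex3 array. The cΔex3 arrays did not follow that sum. Pklr was highest on cΔex3 array 1, at −3.85, where the sum was lowest, at 1.27. It was −4.57 on cΔex3 array 4, where the sum was highest, at 9.98. The fall was −3.93 ± 0.49 (SE; limma, adjusted p = 0.000735), and smaller with normexp, at −3.21, and in the deposited series values, at −3.04.

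Pklr has a start for the red cell form and, downstream, a start for the liver form, and both promoters are shown because hepatocyte and red cell markers were both read on these arrays. Both lie on the plus strand of GRCm38.p6, the upstream window at chr3:89135892-89136141 and the downstream window at chr3:89136373-89136622.
Pklr upstream: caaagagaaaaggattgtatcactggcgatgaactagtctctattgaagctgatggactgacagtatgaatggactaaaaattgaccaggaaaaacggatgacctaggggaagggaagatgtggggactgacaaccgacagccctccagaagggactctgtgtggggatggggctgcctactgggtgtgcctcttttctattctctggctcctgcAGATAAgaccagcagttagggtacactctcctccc
Pklr downstream: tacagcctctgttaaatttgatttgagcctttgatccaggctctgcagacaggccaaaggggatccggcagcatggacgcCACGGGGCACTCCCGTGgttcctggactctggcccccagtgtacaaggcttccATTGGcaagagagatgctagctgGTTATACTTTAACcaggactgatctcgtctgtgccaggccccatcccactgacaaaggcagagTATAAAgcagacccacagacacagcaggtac
Capitals in the upstream window are a GATA site (AGATAA), found on either strand in 9.99% of windows. In the downstream window they are, from the 5′ end, a carbohydrate response element (CACGNG and CNCGTG with 5 bases between them; 13 of 32851 windows), a CCAAT box, an HNF1 site (GTTA and TTAAC with 4 bases between them; 56 windows) and a TATA box (TATAAA; 12.4% of windows). The carbohydrate response element binds ChREBP, the glucose-sensing factor encoded by Mlxipl. A match describes the letters and not a bound site, the motifs were picked after the sequences had been read, and a 7th motif searched, the E-box CACGTG of 6.02% of windows, was found in none of the 12 windows of the 7 members that have one. The erythroid markers did not move as a group, with sums of 123 to 183 on the control and 166 to 295 on the cΔex3 arrays over 4 of 6. The globin gene Hba-a1 was 1.39 higher, while Klf1, the red cell transcription factor gene, was 4.30 lower and Alas2, of heme synthesis, 2.43 lower. The probe used for Pklr is not known to tell the forms apart.

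Ratios of isozymes within an array do not depend on the scaling between arrays, so 5 pairs were compared in this way. The height of a ratio depends on both probes, and only its shift between the groups is read. Outside the 8 genes, Gckr, a hepatocyte gene of glucose handling, read 6.21, 6.39 and 5.50 on the control arrays and −3.80, −2.87, −3.39 and −2.24 on the cΔex3 arrays. The groups did not overlap, and the difference was −9.11 ± 0.41 (SE; limma, adjusted p = 1.28e-05).

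The ratio of Slc2a2 to Slc2a4 shifted most, from 7.97 ± 1.63 (SD, n = 3) to −8.10 ± 1.04 (SD, n = 4) on the log2 scale. The ratio of Slc2a2 to Slc2a1 shifted by −8.85 and that of Pklr to Pkm by −6.62. In these 3 ratios every cΔex3 array was lower than every control array. For Slc2a2 to Slc2a4 and Pklr to Pkm this follows from the values above, since both genes moved apart without overlap. Each shift is the difference between the changes of its genes and no separate evidence. Ratios were also taken among forms that are not of the liver type. Slc2a4 rose against Slc2a1 by 7.22, and Hk2 rose against Hk1 by 0.93, from −1.86 ± 0.28 (SD, n = 3) to −0.93 ± 0.28 (SD, n = 4). With the mean of both Hk1 probes the shift of Hk2 against Hk1 was 2.91, so that its size depends on the Hk1 probe. For all 5 pairs the groups did not overlap, and the exact permutation test over arrays gave p = 0.0571 (two-sided; adjusted over 5 pairs, 0.0571), the smallest that 3 against 4 arrays can give, so that no pair can pass 0.05 by this test.

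**Figure D3:**
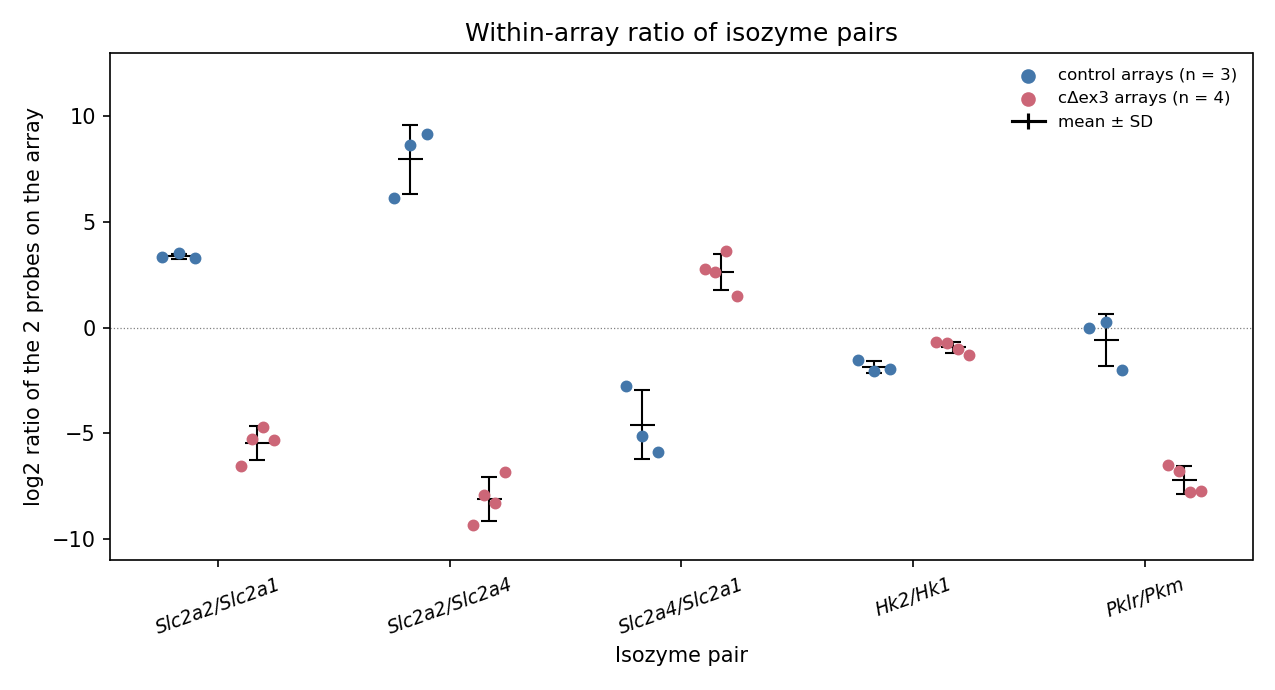
Log2 ratio of the 2 probes of each isozyme pair on each array, with points for the control (n = 3) and cΔex3 (n = 4) arrays and bars for the mean ± SD. The 3 ratios with a liver-type gene first are lower on every cΔex3 array, Slc2a4/Slc2a1 and Hk2/Hk1 are higher, and the last of these shifts by 0.93 with the Hk1 probe drawn and by 2.91 with the mean of both Hk1 probes.

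The wider pathway was read through 7 lists of 79 genes, 77 of them tested. Of these, 31 (40.3%) were higher and 20 (26.0%) lower, against 24% and 29% of all genes tested, shares that each count below is to be read against, with a median difference of 0.32 against −0.08 for all genes tested. The lower count was 13 with quantile normalisation and 12 in the deposited series values. The 69 that are not among the 8 genes counted 26 higher and 18 lower, with a median of 0.16.

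Of 11 tested transporters, 4 (36.4%) were higher and 3 (27.3%) lower, with a median of 0.01, beside 24% and 29% of all genes. Beside Slc2a4, the high-affinity transporter gene Slc2a3 rose by 4.21 ± 0.38 (SE; limma, adjusted p = 0.000181). Slc2a10, above background on no control array, was at least 21.5-fold higher on the scale of the processed signal. It is among the 4 counted as higher but entered the test only through the cΔex3 arrays. Its call (limma, adjusted p = 0.000422) is therefore no support beyond the bound. Its log2 difference was smaller with normexp, at 2.35, and in the deposited series values, at 2.96, so the bound holds for the processed signal only. Slc2a9, which codes for a urate transporter of liver and kidney, fell by 4.05 ± 0.23 (SE; adjusted p = 2.68e-05). In the hexokinase list, which includes Gckr, 2 of 5 genes were higher (Hk1 and Hk2) and 1 lower (Gckr), with a median of −0.36. Hk3, the form of white blood cells, read −1.41 ± 0.46 (SD, n = 3) and −1.77 ± 0.77 (SD, n = 4) and did not pass (adjusted p = 0.530), and Hkdc1, at −2.34 ± 0.68 (SD, n = 3) and −4.47 ± 2.94 (SD, n = 4), did not pass (adjusted p = 0.268).

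Phosphofructokinase, the committed step of glycolysis, and the enzymes that make its activator fructose 2,6-bisphosphate had 4 higher and 1 lower among 7 genes tested (median 0.82). Pfkfb3 rose by 2.54 ± 0.32 (SE; limma, adjusted p = 0.000737) and Pfkfb4 by 2.72 ± 0.30 (SE; adjusted p = 0.000436), both of which code for makers of the activator. Pfkp, the platelet form of the kinase, rose by 3.38 with its brighter probe and by 0.28 (adjusted p = 0.430) with the other, which did not pass. Pfkl, the liver form of the kinase, was also among the higher genes, at 0.82 ± 0.25 (SE; adjusted p = 0.0304), unlike Slc2a2 and Pklr, and it kept that call in 8 of 17 other settings.

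Between aldolase and enolase, 14 genes were tested and 3 were higher and 6 lower (median 0.21). Pgk1, phosphoglycerate kinase, fell by 1.93 ± 0.23 (SE; limma, adjusted p = 0.000576), and Eno2, the neuronal enolase gene, rose by 2.64 ± 0.24 (SE; adjusted p = 0.00017). The 6 lower genes were 1 with quantile normalisation and 1 in the deposited series values, where Gapdh, the dehydrogenase often taken as a housekeeping gene, at −1.27 ± 0.20 (SE; adjusted p = 0.00215) here, was at −0.18 and −0.22 and did not pass, and where Pgam1 and Eno1, at −0.72 and −0.83 here, turned to small positive values. The falls of these enzymes thus depend on the scaling. That of Pgk1 passed in each of 17 other settings but was −1.17 with quantile normalisation and −1.19 in the deposited series values. Leaving out control array 1 or 2 left 2 lower, and leaving out control array 3 or cΔex3 array 1 or 4 left 3.

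Of 12 genes of pyruvate and lactate, 6 were higher and 4 lower (median 0.72). Ldhb, the heart-type lactate dehydrogenase gene, rose by 3.22 ± 0.40 (SE; limma, adjusted p = 0.000673). Its isozyme partner Ldha, the form of muscle and many other tissues, went the other way, at −1.59 ± 0.31 (SE; limma, adjusted p = 0.00506), with 2 further probes at −1.76 and −1.68. With quantile normalisation Ldha was at −0.56 and in the deposited series values at −0.55, and it did not pass in either. Pdk3, of a kinase that shuts off pyruvate dehydrogenase, rose by 3.47 ± 0.28 (SE; adjusted p = 0.000121). Slc16a1, the gene of a lactate transporter, was 2.14-fold lower (adjusted p = 0.00206).

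Insulin signalling and the traffic of GLUT4 vesicles had 8 (53.3%) higher and 1 (6.67%) lower among 15 genes tested (median 0.73), beside 24% and 29% of all genes. Trarg1, which codes for a GLUT4 vesicle protein of fat, read −5.44 ± 0.60 (SD, n = 3), above background on 1 of 3 control arrays, and 3.04 ± 1.46 (SD, n = 4), a fitted rise of 8.48 ± 0.78 (SE; limma, adjusted p = 0.00019). The size of this rise is uncertain, since the other 2 control arrays had no signal well above background, and it was 6.42 with normexp and 7.02 in the deposited series values. Tbc1d4, the gene of the Akt substrate that holds GLUT4 inside the cell, rose by 3.26 ± 0.23 (SE; adjusted p = 6.11e-05), and its other probe gave 3.44. Sort1, a sorting receptor of these vesicles, rose by 4.30 with its brightest probe and by 1.80 with another, while a further probe fell by 0.66 (adjusted p = 0.0244). The member that fell was Aspscr1, which codes for the tether TUG, at −1.64 ± 0.17 (SE; adjusted p = 0.000288); it was named after its value had been seen. The list's higher count was 4 without control array 1 and 5 with arrays of 1 mouse only.

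Regulators of glycolytic genes and of Pkm splicing had 4 higher and 4 lower among 13 genes tested (median −0.08). Mlxipl, the ChREBP gene of liver and fat, fell by 2.26 ± 0.25 (SE; limma, adjusted p = 0.000452), whereas its other probe differed by 0.03 and did not pass. The higher count of this list was 2 without control array 1 and 1 with arrays of 1 mouse only. The partner gene of Mlxipl, Mlx, fell by 1.66 ± 0.19 (SE; adjusted p = 0.000469). The relative Mlxip rose by 2.05 with the probe used and differed by −0.11 with the other, which did not pass.

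**Figure D4:**
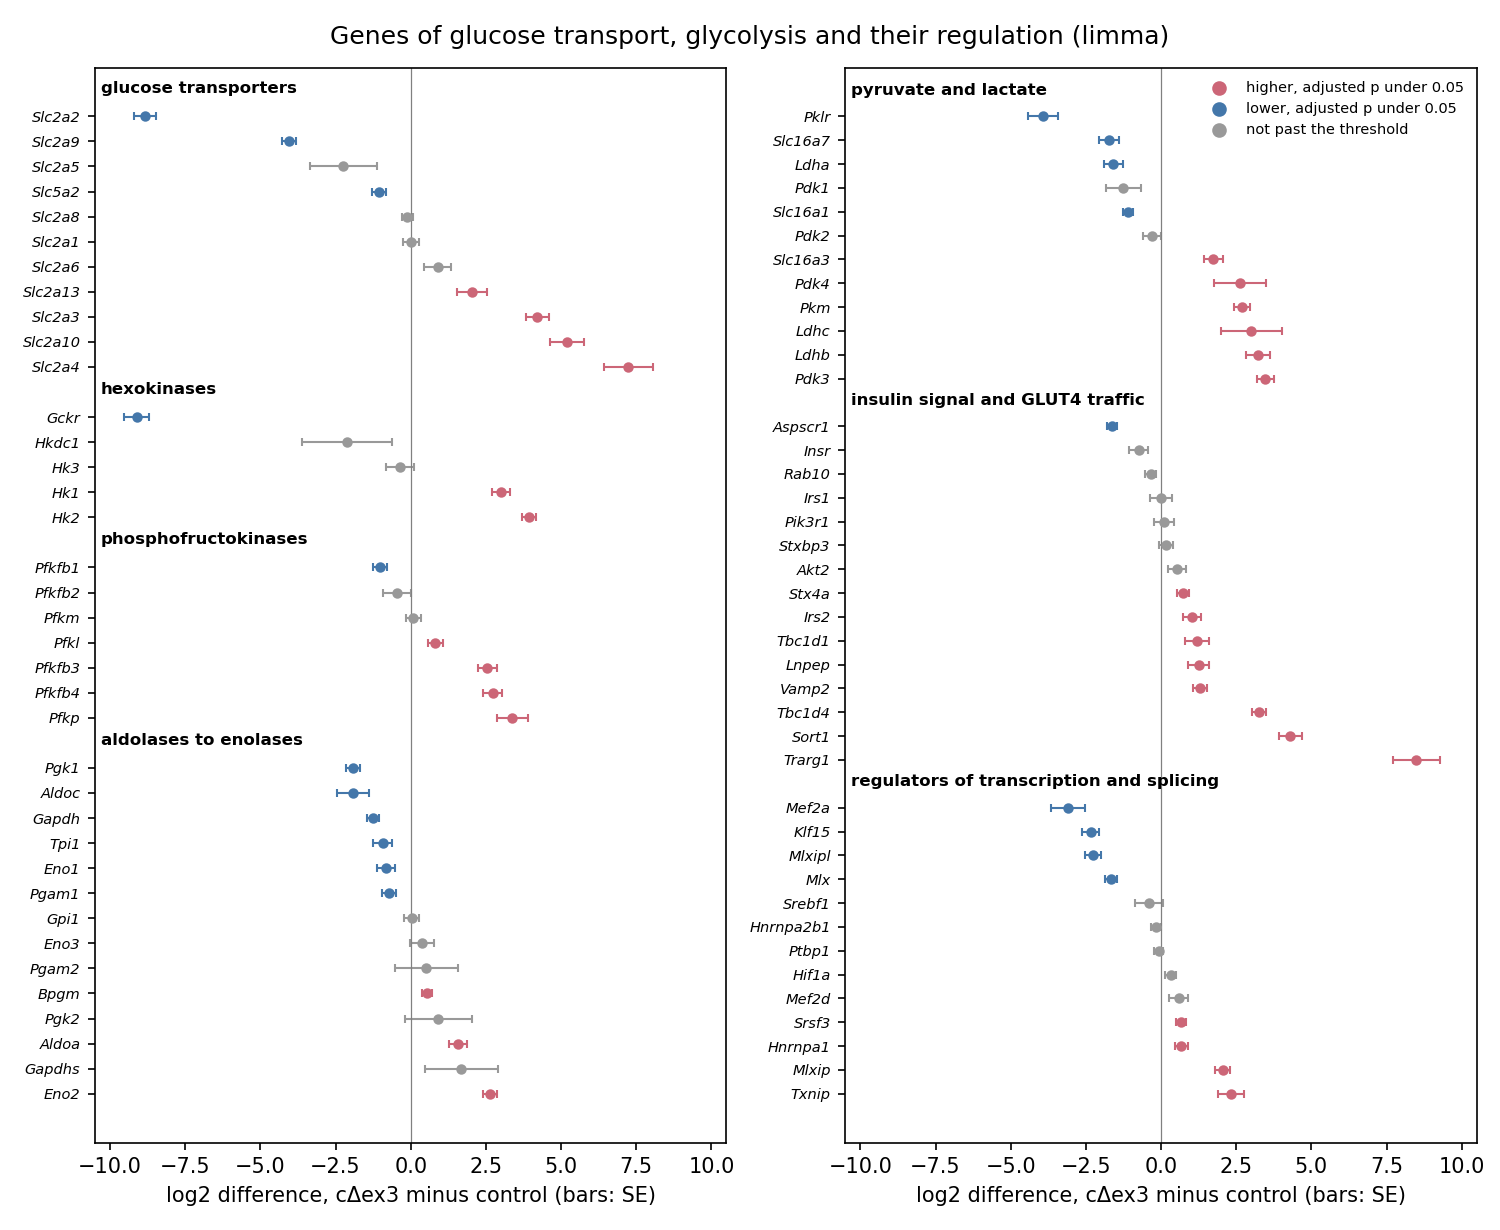
Log2 difference (cΔex3 minus control, n = 3 and 4) of the 77 tested genes of 7 lists with SE bars, coloured by whether limma's adjusted p passed 0.05. Gckr and Slc2a2 lie furthest to the left, and Slc2a4 and Trarg1, the latter dim on 2 control arrays, lie to the right of the others.

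The genes whose pattern over the 7 arrays came closest were found by the root mean square distance between values centred on each gene's own mean, among 18028 others. Closest to Slc2a2 were Hrg, of a plasma glycoprotein made by liver, at a distance of 0.17, and the pyrimidine-breakdown enzyme gene Dpys at 0.19. Closest to Pklr were the aminotransferase gene Got1 at 0.31 and Tcea3 at 0.33. Hk2 had Tspan13 at 0.15 and Abcc1 at 0.20. Slc2a4 had no neighbour as close, with Upk3b, a gene of mesothelium and urothelium, at 0.41 and the matrix gene Mfap5 at 0.59. Upk3b was above background on 1 of 3 control arrays, so its distance rests in part on dim values. The distance takes in all 7 arrays, so that genes with a like difference between the groups come out close.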

How the data were processed

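RNA of sorted skin cells (10 ng per sample) was amplified, labelled with Cy3 and hybridised to 1-colour Agilent mouse arrays, per the labels. The deposited intensity is the processed signal of Agilent Feature Extraction 10.7.1.1, with background subtracted and a spatial trend fitted on each array, per the file headers, and its level differed between arrays. Raw median spot and background intensity, as deposited, served the normexp alternative (offset 50), and deposited flags (other values) marked outliers and spots well above background. The authors' deposited series table holds log2 values with nearly equal columns (medians 7.407 to 7.413); its making and background offset are not given in the sources used here, and it correlated at 0.9999 with normexp and quantile normalisation, so it was an alternative only.

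Control spots and outliers were left out, log2 was taken, the 75th percentile of the array was subtracted, and spots of a probe were averaged. Probes were named by accession through a RefSeq table on GRCm38.p6 (28026 of 55681 named), tested where well above background on at least 3 arrays, and the probe with the highest mean was used per gene. limma 3.58.1 in R 4.3.3 compared the groups without covariates, with Benjamini-Hochberg adjustment over 18031 genes at 0.05, and every adjusted p for a gene comes from it. A bound ("at least") takes, on each dim array, the lowest signal of any probe well above background, or the probe's own where higher. Isozyme ratios were tested with scipy 1.17.1. The code of the fit was tried on simulated data with independent noise and few changed genes, all higher. These data differ from that setting, so the trial checks the code only.

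On 4 of 7 arrays header and file name gave different slide positions. On every array the header's slide number also differed from the part of the file name read as one. Samples follow the deposit's record. Replicates are biological, per the labels. Members, lists and marker sets were chosen with earlier results of these data known. Named genes are the 8 members, Gckr, Ctnnb1, Alb, Adipoq, 3 further genes per list (smallest p), and the 2 nearest genes to each of Slc2a2, Slc2a4, Pklr and Hk2; marker genes, Pfkl, Ldha, Pgam1, Eno1 and Aspscr1 were named after their values were seen. Some listed genes and pairs are not reported here. Alb fell by 8.30 and Adipoq rose by 11.43.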

Additional observations from a re-analysis of the deposited data

Results flagged for a closer look

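Among 45 sets of values checked for an array apart from the other cΔex3 arrays (Dixon's test for 4 samples), 2 stood out, and chance gives about 1 in 20. Slc2a2 was low on cΔex3 array 1, at −4.25 against −3.13 to −2.90 on the others, the array that also had the lowest hepatocyte sum, 1.27. Slc2a10 was high on cΔex3 array 4, at 0.19, while the others were at −1.67 or lower.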

How the results depend on the processing

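Each result was recomputed in 17 other settings, 7 of which left out an array. All members but Slc2a1 kept their direction and their call in each. For Hk1, no setting used the dimmer probe alone, which was called lower, at −0.97. Slc2a1, not past the threshold in any, was −0.086 with a replicate block and −0.15 to 0.20 when an array was left out, its sign turning without control array 3 or cΔex3 array 1, 2 or 4. Pathway genes lower were 13 with quantile normalisation and 12 in the deposited series values, against 20. Gapdh, lower otherwise, was at −0.18 and −0.22 there and did not pass. Hk3 turned to 0.015 with a replicate block and ranged from −0.58 to 0.015 when an array was left out, its sign turning without cΔex3 array 4, and was not past the threshold in any setting. Ctnnb1 turned to 0.094 with normexp, 0.46 with quantile normalisation, 0.52 in the deposited values and 0.018 with arrays of 1 mouse. The median difference of all genes moved from −0.08 to 0.13 with quantile normalisation and −0.22 with normexp. Of 51 pathway genes called, 31 kept their call in every setting. Of 32 other named genes, 29 kept direction and call. Same-numbered arrays did not visibly deviate together, with correlations of −0.01, −0.001 and 0.02, within the −0.09 to 0.09 of the other pairs. With so few arrays this cannot exclude a pairing. The replicate block left out cΔex3 array 4, which has no control array of its number. It gave 4493 genes higher and 4981 lower, against 4921 and 5569 on the same arrays without the block. On all arrays the counts were 4334 and 5237. No isozyme ratio could pass 0.05 in any setting, and all kept their direction. The number of arrays limits the precision, and dim probes, such as those of Slc2a10 on the control arrays, give bounds only.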
